A study of Mus musculus with 34 samples.

Results

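Chemokines are small secreted proteins that steer the movement of immune cells, and 10 of their genes were followed here through fibroblasts and the cells that chemicals induced from them. The genes were Ccl2, Ccl5, Ccl6, Ccl7, Ccl8, Ccl9, Cxcl1, Cxcl5, Cxcl10 and Cxcl12. They were picked by symbol, with no measured value in the rule, but with earlier results of these data known. All 10 were found in each of the 5 expression tables, out of 49069 genes listed in at least 1 of them. RNA sequencing of poly-A mRNA had been done on 34 mouse libraries. Levels are in FPKM (fragments divided by gene length and by library size), so they can be set beside each other between genes, and tests and differences were computed only between groups of a table, while levels set side by side across tables are descriptions, since each table was normalized separately.

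The table on the XEN-like state (XEN table) held 16 libraries. These were 8 primary colonies of cells resembling extraembryonic endoderm (colonies, XEN-like), 3 samples of line F25 (P5, P8 and P13) and 2 of line s39 (P3 and P17), both labelled as chemically induced and XEN-like, 1 of eXEN cells (P8, labelled as chemically derived and, for source, as mouse embryonic XEN cells) and 2 of mouse embryonic fibroblasts. In the hepatic table, hepatocyte-like cells made from the XEN-like state had 4 libraries, while hepatocytes, hepatic tissue and fibroblasts had 2 each. The first neuronal table held 1 library each of TauEGFP colonies 1, FICB neuronal cells, primary neurons 1, brain and fibroblasts 3. The second held TauEGFP colonies 2 and primary neurons 2, and the P24 table held 1 culture labelled as P24 neuronal cells derived from XEN-like cells. All came from the strain Mapttm2(EGFP)Klt/J, in which EGFP sits in the gene of the neuronal protein tau, except the primary cortical neurons, which came from C57BL/6. F25 and s39 are called lines here because each name comes with several P numbers, which the labels do not explain, and it is not labelled whether any libraries come from 1 animal or culture. FICB is the treatment by which the labels say those neuronal cells were induced, and they do not spell it out.

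As background, the C-C chemokines Ccl2, Ccl7 and Ccl8 attract monocytes. Ccl5 attracts T cells and monocytes, and Ccl6 and Ccl9 are rodent chemokines made largely by myeloid cells. Among the C-X-C chemokines, Cxcl1 and Cxcl5 attract neutrophils through the receptor Cxcr2, Cxcl10 attracts activated T cells through Cxcr3 and is induced by interferon, and Cxcl12 holds blood stem cells and other Cxcr4-bearing cells in place. Cultured fibroblasts make several of them when the transcription factor NF-kB is active, whereas Cxcl12 is a steady product of stromal cells.

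The genes stand in clusters (mm10, GENCODE vM21). Ccl2 (chr11:82035571-82037453, plus strand), Ccl7 (chr11:82045712-82047525, plus) and Ccl8 (chr11:82115185-82116799, plus) lie within 81.2 kb. Ccl5 (chr11:83525778-83530518, minus), Ccl9 (chr11:83572919-83578636, minus) and Ccl6 (chr11:83587882-83593087, minus) lie within 67.3 kb further along chromosome 11. Cxcl5 (chr5:90759360-90761624, plus) and Cxcl1 (chr5:90891241-90893115, plus) lie within 133.8 kb, while Cxcl10 (chr5:92346638-92348889, minus) is on the same chromosome and Cxcl12 (chr6:117168535-117181367, plus) stands alone. Genes on the opposite strand overlap Cxcl10 (Art3), Ccl2 (Gm17268) and Ccl6 (E230016K23Rik). The sources used here do not state whether strand was used in counting, so reads of these pairs cannot be told apart.

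The start of 4 genes is shown because their levels part company below. The sequences are from RefSeq (GRCm38.p6), end at or near the start of transcription, and carry in capitals each match, on either strand, to a NF-kB type motif (GGG and TTCC with any 3 bases between them) or to an interferon response element type motif (GAAA and GAAA with any 2 bases between them). Cxcl1 (chr5:90891135-90891244, plus strand) and Cxcl10 (chr5:92348890-92349114, minus strand) are given at full reach of their matches, Ccl9 (chr11:83578637-83578696, minus strand) and Cxcl12 (chr6:117168475-117168534, plus strand) by their last 60 bases.
Cxcl1: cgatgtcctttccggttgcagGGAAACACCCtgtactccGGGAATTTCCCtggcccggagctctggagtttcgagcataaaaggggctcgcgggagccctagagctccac
Cxcl10: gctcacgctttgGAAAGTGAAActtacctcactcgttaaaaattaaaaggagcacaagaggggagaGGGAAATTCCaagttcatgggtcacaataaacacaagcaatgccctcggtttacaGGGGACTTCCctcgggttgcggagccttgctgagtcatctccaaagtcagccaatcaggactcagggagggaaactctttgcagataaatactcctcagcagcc
Ccl9: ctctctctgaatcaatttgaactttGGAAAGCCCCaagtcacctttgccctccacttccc
Cxcl12: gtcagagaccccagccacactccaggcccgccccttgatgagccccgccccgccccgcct
Of the 10 genes, 6 were matched in the promoter table (Ccl6, Ccl8, Ccl9, Cxcl1, Cxcl10 and Cxcl12), each as 250 bases before to 50 after the start. The NF-kB type motif was found 3 times in Cxcl1, with a pair of matches that overlap on opposite strands, 2 times in Cxcl10 and 1 time in Ccl9. It was present in 1825 of 32851 promoters of that length (5.56%). The interferon type motif was found 1 time, in Cxcl10, and in 1131 promoters (3.44%). The windows of Ccl6, Ccl8 and Cxcl12 hold neither set of letters, and a match describes letters only.

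The files give no read totals. A rough depth, taken from the FPKM steps of genes with a single exon, was 6000000 to 11900000 fragments in a library, and 10312 to 14466 genes reached 1 FPKM. Summed XEN markers were 1932 to 4481 FPKM in the colonies, against 24.9 to 82.3 FPKM in the fibroblasts of the XEN table. Summed hepatocyte markers were 1555 to 8018 FPKM in the hepatocyte-like cells, against 57786 to 102470 FPKM in hepatocytes. The hepatocyte-like cells also had XEN marker sums of 4178.5 to 8292.9 FPKM. These were above the hepatocyte sum in hepatocyte-like cells 3 and 4 and below it in 1 and 2. Some libraries held markers other than those of their label. The library labelled primary neurons 2 had a macrophage marker sum of 8259 FPKM, a glia marker sum of 3380 FPKM and a neuron marker sum of 77.7 FPKM. In primary neurons 1 glia markers summed to 73.3 FPKM and neuron markers to 1074 FPKM. The library labelled P24 neuronal cells had 10.8 FPKM of neuron markers beside 4425 FPKM of XEN markers and 4176 FPKM of hepatocyte markers. FICB neuronal cells had 310 FPKM of neuron markers beside 2368 FPKM of fibroblast markers and 1448 FPKM of neutrophil markers. Nearly all of that neutrophil sum was the single gene S100a8. TauEGFP colonies 1 had 666 FPKM of neuron markers beside 1555 FPKM of fibroblast markers and 508 FPKM of XEN markers. TauEGFP colonies 2 had 873 FPKM of neuron markers beside 3970 FPKM of fibroblast markers. Fibroblasts 1 and 2 of the hepatic table had macrophage marker sums of 1873 and 9886 FPKM, beside fibroblast marker sums of 6137 and 6676 FPKM.

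In each of the 3 tables that held them, fibroblasts had the highest summed level of the chemokines, and a few genes made up most of it. The 10 levels summed to 1311 and 3387 FPKM in the fibroblasts of the XEN table, 4349 and 3629 FPKM in those of the hepatic table and 3249 FPKM in fibroblasts 3. Ccl2, Ccl7, Cxcl1 and Cxcl5 together made up 66.9% to 94.9% of these sums. Ranked within each of the 5 fibroblast libraries, Ccl2 was always first or second, Cxcl5 ranked 1 to 4, Ccl7 2 to 4 and Cxcl1 2 to 5. Cxcl12 ranked 5 to 6, Ccl8 6 to 8, Ccl5 6 to 9, Ccl9 7 to 9 and Cxcl10 9 to 10. Ccl6 ranked anywhere between 2 and 10, and since the ranks of Ccl2, Ccl7, Cxcl1 and Cxcl5 overlapped, their order was not fixed.

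**Figure D1:**
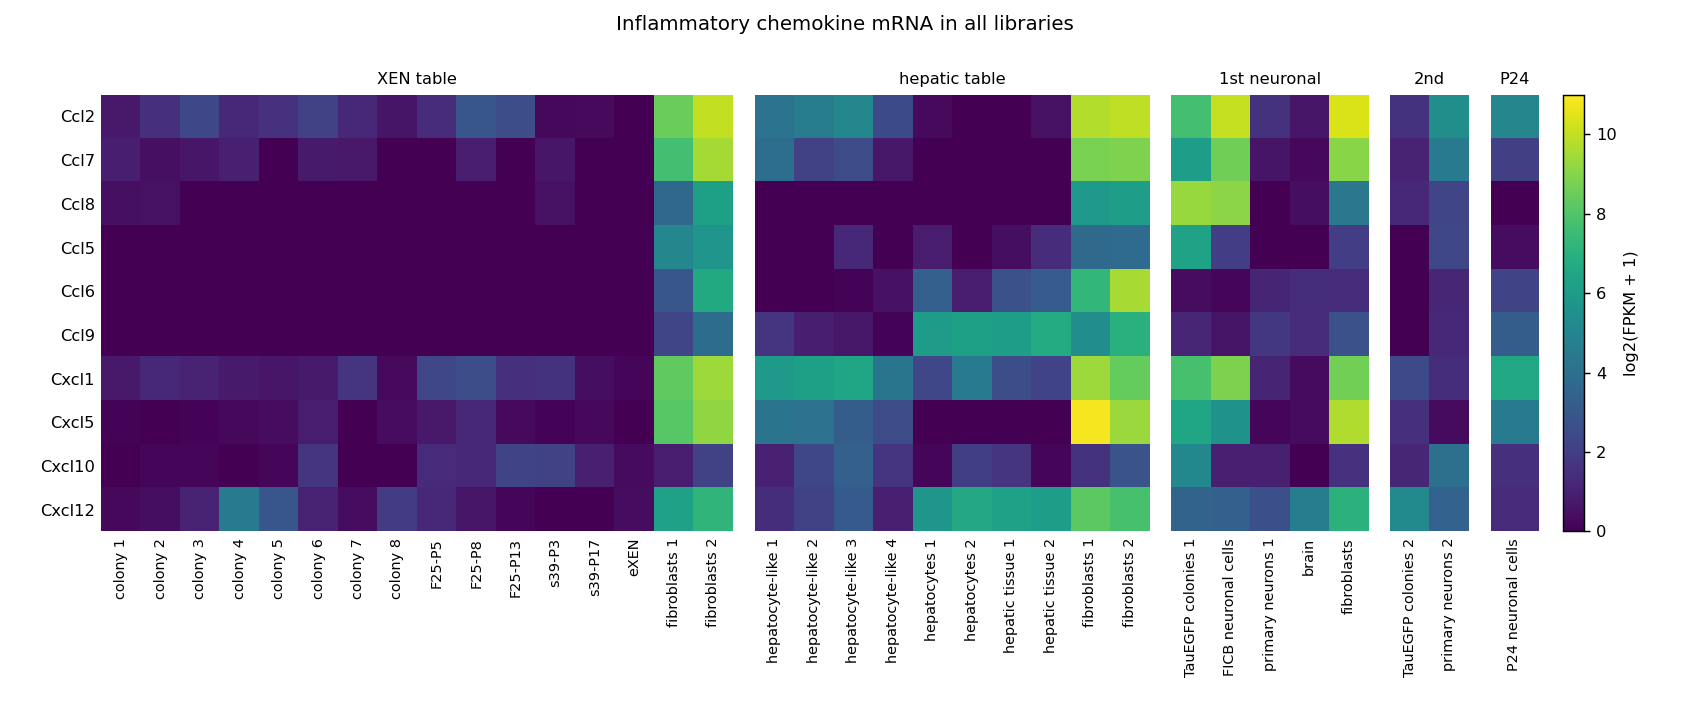
Level of each chemokine gene in each of the 34 libraries, as log2(FPKM + 1) on a colour scale, with a panel for each deposited table. Fibroblast columns are bright for Ccl2, Ccl7, Cxcl1 and Cxcl5 in every table that has fibroblasts, colonies and lines are dark but for Cxcl12 in colony 4 (22.4 FPKM), and Ccl9 and Cxcl12 are bright in hepatocytes and hepatic tissue.

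Fibroblast libraries differed most in Ccl6. It was at 6.58 and 100.2 FPKM in fibroblasts 1 and 2 of the XEN table, at 157 and 765 FPKM in those of the hepatic table and at 1.65 FPKM in fibroblasts 3. Summed macrophage markers in the same libraries were 66.9 and 510, 1873 and 9886, and 30.9 FPKM, so Ccl6 and these markers had the same order over the 5 libraries. Their part in the result was not tested. Ccl9 followed less closely, at 3.88 and 13.8, 41.1 and 127, and 5.68 FPKM. Within the XEN table all 10 genes were higher in fibroblasts 2 than in fibroblasts 1, from 1.61 times for Ccl5 to 15.2 times for Ccl6. These libraries were on different flow cells, so flow cell and library cannot be told apart. Within the hepatic table Ccl6 was 4.88 times as high in fibroblasts 2 as in fibroblasts 1, while Cxcl5 was 0.352 times and Cxcl1 0.503 times as high.

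The first comparison asked what became of this output when fibroblasts were turned into XEN-like colonies. All 10 genes were called lower in the colonies, with a background of 16.8% of the 14012 genes tested called lower, 17.8% higher and 34.6% in either direction. A call means a Benjamini-Hochberg adjusted p under 0.05 in limma over all genes of the table and a difference of at least 1 on the scale of log2(FPKM + 1). The median difference of the 10 was -5.40, against 0.155 for all genes, both on that scale. Only 4 of the 10 (Ccl2, Cxcl1, Cxcl10 and Cxcl12) would have passed the filter on low values without the fibroblasts. The other 6 (Ccl5, Ccl6, Ccl7, Ccl8, Ccl9 and Cxcl5) entered through the fibroblast libraries alone. These 6 had to differ, which limits both their p-values against these fibroblasts and the count. Without fibroblasts 1 it was 5 of 5 genes tested, and without fibroblasts 2 it was 4 of 5. Fibroblast markers moved the same way: their sum was 89.995 to 195 FPKM in colonies, against 8418 and 9123 FPKM in fibroblasts, and 9 of 10 were called lower, with a median difference of -8.66. Their part in the result was not tested. In bulk RNA, fewer cells of a type and less RNA per cell cannot be told apart.

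Among the monocyte attractants, Ccl2 ranged over the 8 colonies between 0.527 and 4.17 FPKM, with a median of 1.59 FPKM, against 363 and 1016 FPKM in fibroblasts. The groups lay far apart, and the difference was -7.85 ± 0.51 (SE) on the log2(FPKM + 1) scale (limma adjusted p = 2.74e-08). Ccl7 was at 0 to 0.943 FPKM in colonies, with a median of 0.643 FPKM, against 210 and 735 FPKM in fibroblasts, a difference of -8.08 ± 0.43 (limma adjusted p = 3.37e-09). Ccl8 was listed at 0 in 6 colonies and at 0.383 and 0.391 FPKM in the other two, against 12.3 and 74.2 FPKM in fibroblasts (limma adjusted p = 5.13e-07). The neighbours on chromosome 11 were thus low together in every colony, though Ccl7 and Ccl8 passed the filter through the fibroblasts alone.

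Ccl5, Ccl6 and Ccl9 were listed at 0 in all 8 colonies and passed the filter through the fibroblasts alone. In fibroblasts Ccl5 stood at 33.0 and 53.0 FPKM, Ccl6 at 6.58 and 100.2 FPKM and Ccl9 at 3.88 and 13.8 FPKM. All were called lower in colonies, with limma adjusted p of 5.26e-11, 3.62e-06 and 4.61e-07 for differences of -5.44, -4.89 and -3.13, whose size is set by the pseudocount where a group is at 0. The summed macrophage markers moved the same way, at 5.77 to 45.3 FPKM in colonies, nearly all of it Cd68 and Cd14, against 66.9 and 510 FPKM in fibroblasts. Ptprc, Fcer1g, C1qc and Cd163 were at 0 in every colony. Of 6 macrophage markers tested, 5 were called lower, and their part in the result was not tested.

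The neutrophil attractants fell too. Cxcl1 ranged between 0.209 and 2.27 FPKM in colonies, with a median of 0.731 FPKM, against 319 and 664 FPKM in fibroblasts, a difference of -7.94 ± 0.43 (limma adjusted p = 3.89e-09). Cxcl5 ranged between 0 and 0.791 FPKM in colonies, with a median of 0.130 FPKM, against 284 and 580.1 FPKM in fibroblasts, a difference of -8.47 ± 0.29 (limma adjusted p = 4.02e-11). The groups lay far apart for both genes, though Cxcl5 passed the filter through the fibroblasts alone.

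Cxcl10 and Cxcl12 behaved less evenly. Cxcl10 ran between 0 and 2.16 FPKM in colonies, with a median of 0.0596 FPKM, against 0.771 and 3.56 FPKM in fibroblasts, so the groups overlapped. Its difference of -1.29 ± 0.45 was called (limma adjusted p = 0.0295) but was not on the HVN flow cells alone (adjusted p = 0.308), on flow cell HJMKLALXX alone (0.107) or without fibroblasts 2 (0.438), and its adjusted p ran between 0.00509 and 0.438 over all alternatives. Cxcl12 was at 0.190 to 22.4 FPKM in colonies, with a median of 1.09 FPKM, against 77.5 and 147 FPKM in fibroblasts, a difference of -5.36 ± 0.75 (limma adjusted p = 4.67e-05). Its highest colonies were 4 and 5, at 22.4 and 6.73 FPKM. The same pair had the highest colony levels of the interferon-induced gene Isg15, at 7.00 and 6.04 FPKM, while their Cxcl10 was at 0 and 0.155 FPKM. Isg15 is named below as running most like Cxcl12 in this table (Pearson r = 0.967), so the match is not independent. Interferon response genes summed to 558 and 631 FPKM in colonies 4 and 5, and to 547 FPKM in colony 8, whose Cxcl12 was 2.81 FPKM. Their part in the result was not tested.

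**Figure D2:**
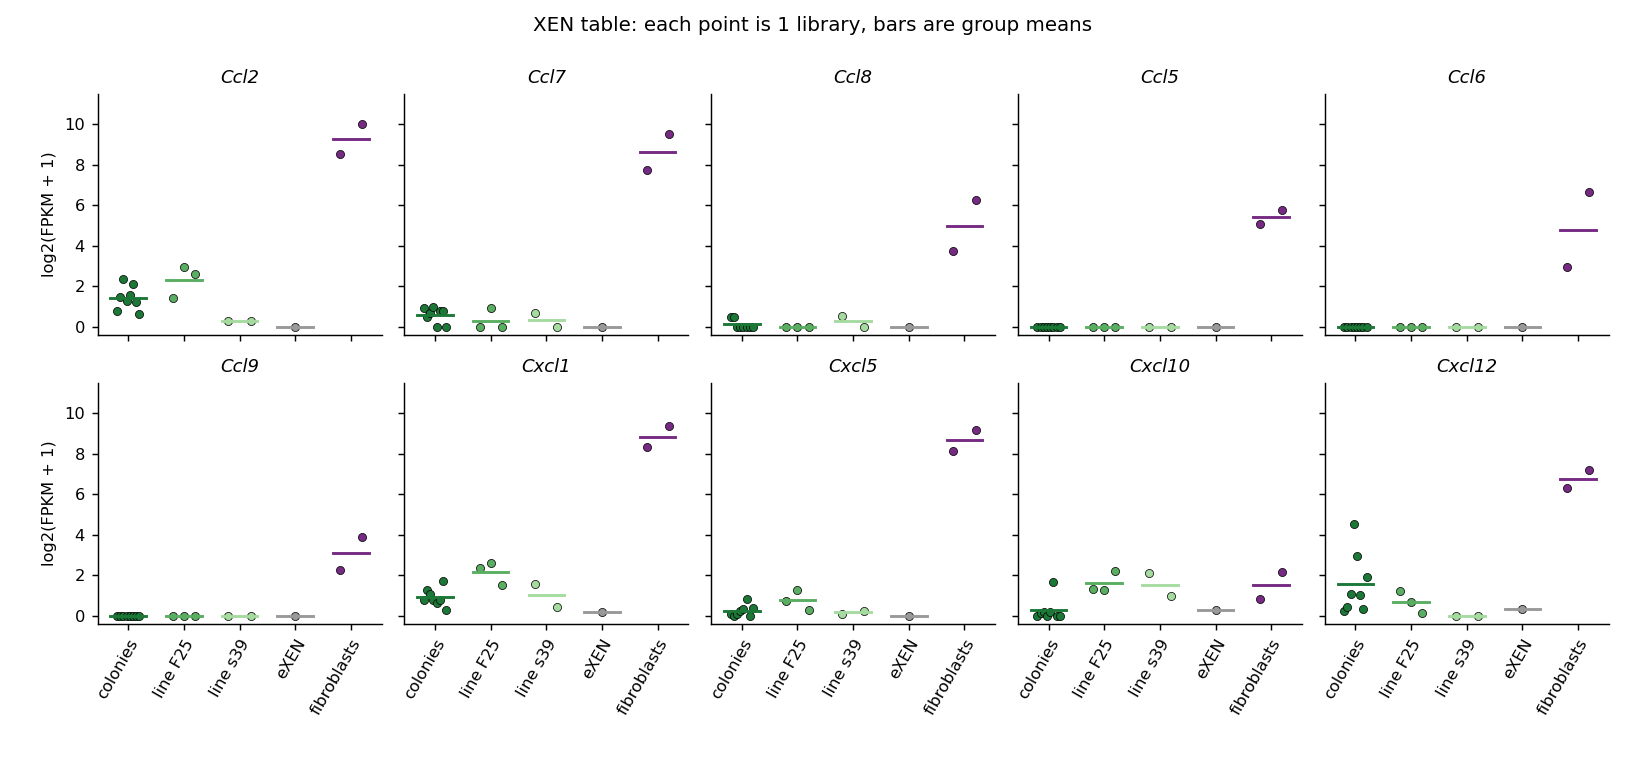
Level of each gene in the 16 libraries of the XEN table, as log2(FPKM + 1), with a point for each library and a bar at each group's mean. Except for Cxcl10, both fibroblast points lie above every induced or eXEN library.

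Other gene lists were set beside the 16.8% of all genes called lower in colonies. Of 27 NF-kB pathway genes tested, 22 were called lower in colonies and 0 higher, with a median difference of -2.28. Their part in the result was not tested. Ptgs2, which makes prostaglandins, averaged 0.699 FPKM in colonies and 278 FPKM in fibroblasts (-7.22 ± 0.54, limma adjusted p = 1.34e-07), and the cytokine Il6 averaged 0.0299 FPKM in colonies and 39.1 FPKM in fibroblasts (-5.22 ± 0.23, 5.79e-10). Of 13 other chemokines tested, 9 were called lower, led by Ccl11 (0 FPKM in every colony, against a mean of 77.3 FPKM in fibroblasts), Cxcl3 (0 in every colony, against 41.8 FPKM), Cxcl2 (0.210 against 32.9 FPKM) and Pf4 (0 in every colony, against 14.8 FPKM). These 13 are the ones that passed the filter, of 20 in the XEN table. Il6 and the genes at 0 in every colony did not pass it through the colonies. Of 13 interferon response genes tested, 9 were called lower. The summed levels of that list overlapped, at 126 to 631 FPKM in colonies, against 189 and 811 FPKM in fibroblasts. Of 2 receptors tested 1, Ccrl2, a receptor-like protein, was called, and it was higher, at a mean of 2.87 FPKM in colonies and 0.707 FPKM in fibroblasts (1.16 ± 0.36, limma adjusted p = 0.0171).

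Lines F25 and s39 were set against the same fibroblasts. In the lines 9 of the 10 genes were called lower, with a background of 14.8% of genes lower, 19.1% higher and 33.8% in either direction, and this comparison shares its fibroblasts with the one on colonies. The filter is that of the whole table, so here too 6 of the 10 genes entered through the fibroblast libraries alone, and with either of these left out the count was 4 of 5 genes tested. Fibroblast markers summed to 116 to 447 FPKM in the lines, and 9 of 10 were called lower and 1 higher. Their part in the result was not tested. Of all genes called in this comparison 56.4% were higher, and 41.8% after median-ratio scaling, which took the all-gene median to -0.056, against 0.195 before. Ccl2 was at 1.63, 6.76 and 5.08 FPKM in F25 (P5, P8 and P13) and at 0.195 and 0.209 FPKM in s39 (P3 and P17), a difference from fibroblasts of -7.88 ± 0.57 (limma adjusted p = 1.53e-07). F25 was above s39 in every library, a gap that the p-values for lines do not include. Cxcl1 was at 4.14, 5.08 and 1.89 FPKM in F25 and at 2.03 and 0.335 FPKM in s39 (-7.23 ± 0.48, 6.24e-08), and Cxcl5 reached 1.44 FPKM at most (-7.98 ± 0.33, 4.50e-10). Ccl5, Ccl6 and Ccl9 were listed at 0 in all 5 line libraries, as they were in the colonies.

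Cxcl10 was the exception. It was at 1.5, 1.41 and 3.71 FPKM in F25 and at 3.31 and 0.976 FPKM in s39, against 0.771 and 3.56 FPKM in fibroblasts, and did not pass the test (0.32 ± 0.51, limma adjusted p = 0.654). Cxcl12 was at 1.33, 0.585 and 0.123 FPKM in F25 and at 0 in both s39 libraries (-5.69 ± 0.85, limma adjusted p = 0.00012). NF-kB pathway genes were called lower in 21 of 27 cases, other chemokines in 9 of 13 and interferon response genes in 8 of 13, beside 14.8% of all genes. Interferon response genes summed to 223 to 458 FPKM in the lines, which lies between the sums of the fibroblasts (189 and 811 FPKM).

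Lines set directly against colonies showed 0 of the 10 genes called, with a background of 0.0856% of genes (12 of 14012; 0.05% higher and 0.0357% lower) in limma, and 1 of the 10 had an unadjusted p under 0.05. That gene was Cxcl10, at a median of 1.5 FPKM in the 5 line libraries against 0.0596 FPKM in colonies (1.61 ± 0.40, unadjusted p = 0.00108, limma adjusted p = 0.177). Without colony 6, whose Cxcl10 was 2.16 FPKM, the difference was 1.65 and was called (limma adjusted p = 0.0475), and over all alternatives the adjusted p ran between 0.0475 and 0.586. Cxcl1 differed by 0.71 ± 0.38 (limma adjusted p = 0.417) and Ccl2 by -0.03 ± 0.45 (0.984). Ccl5, Ccl6 and Ccl9 were at 0 in every line and colony library, so they had no difference to call. The single eXEN library had Cxcl12 at 0.280 FPKM, Cxcl10 at 0.240 FPKM and Cxcl1 at 0.144 FPKM, and the other 7 genes at 0.

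**Figure D3:**
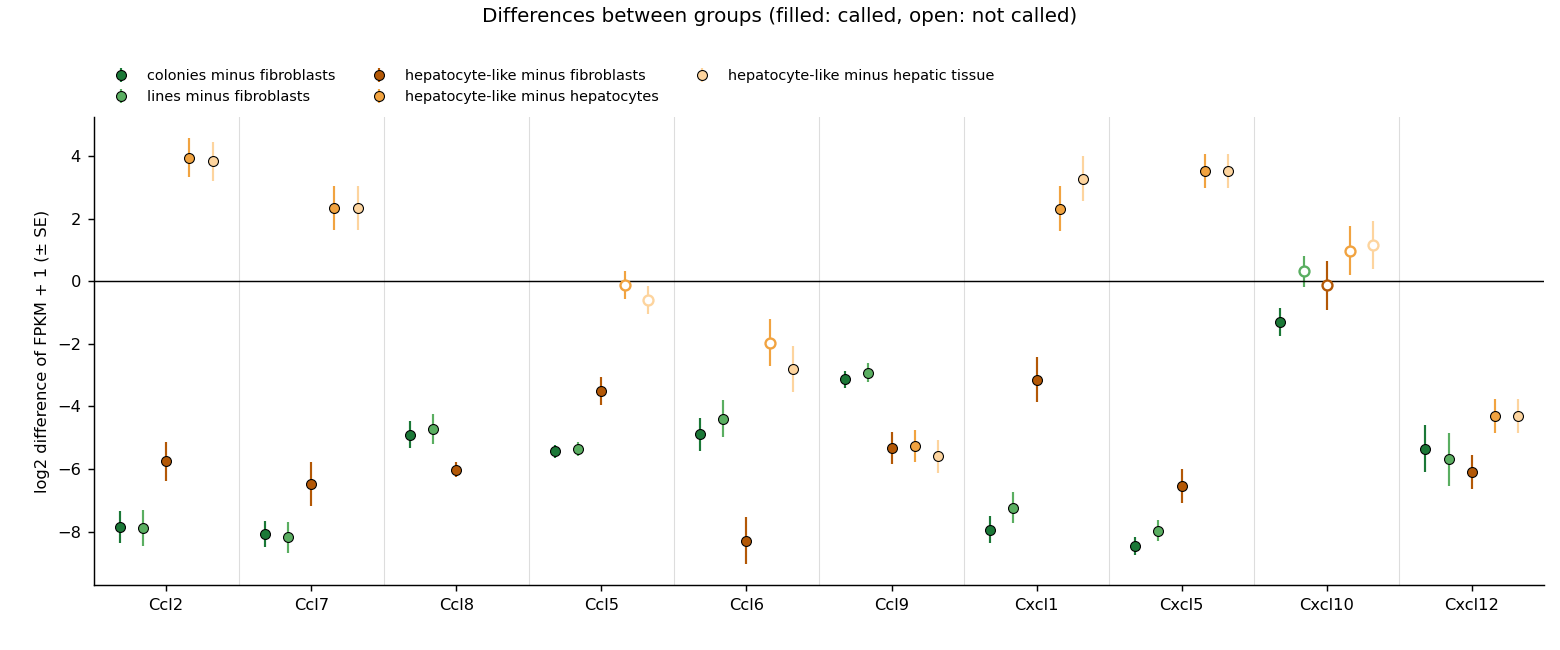
Difference between groups for each gene on the log2(FPKM + 1) scale, with SE bars and filled points for called differences. Colonies, lines and hepatocyte-like cells lie below fibroblasts for every gene but Cxcl10, where lines lie 0.32 above, and hepatocyte-like cells lie above hepatocytes and hepatic tissue for Ccl2, Ccl7, Cxcl1 and Cxcl5 but below them for Ccl9 and Cxcl12. Ccl8 is left out where both groups are at 0.

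The hepatic table set hepatocyte-like cells against fibroblasts and against hepatocytes and hepatic tissue (liver). Against fibroblasts 9 of the 10 genes were called lower, with a background of 15% of 15657 genes lower, 11.4% higher and 26.3% in either direction, and the median difference was -5.89, against 0.077 for all genes. Without fibroblasts 1 the count was 7 of 9 genes tested, and without fibroblasts 2 it was 8 of 9. Of the 10 genes 1, Ccl8, passed the filter through the fibroblasts alone and so had to differ. Fibroblast markers moved the same way, with sums of 9.79 to 140 FPKM in hepatocyte-like cells, against 6137 and 6676 FPKM in fibroblasts, and 10 of 10 were called lower, with a median difference of -6.83. Their part in the result was not tested. Cxcl1 was the highest of the 10 in every hepatocyte-like library, at 60.4, 74.9, 87.6 and 18.6 FPKM in hepatocyte-like cells 1 to 4, against 662 and 333 FPKM in fibroblasts. That difference of -3.14 ± 0.72 was called (limma adjusted p = 0.00973), but not without fibroblasts 1 (-2.65, 0.119). Ccl2 was at 17.1, 23.4, 33.2 and 4.49 FPKM in hepatocyte-like cells, against 853 and 988 FPKM in fibroblasts (-5.76 ± 0.62, 0.000152). Hepatocyte-like cells 4 were the lowest of the 4 libraries in both genes.

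Ccl7 was at 14.7, 3.49, 4.83 and 0.626 FPKM in hepatocyte-like cells, against 438 and 465 FPKM in fibroblasts (-6.48 ± 0.71, limma adjusted p = 0.00016). Cxcl5 was at 17.8, 15.99, 8.56 and 4.82 FPKM in hepatocyte-like cells, against 1823 and 642 FPKM in fibroblasts (-6.55 ± 0.54, 2.97e-05). Each gene's groups lay apart. Ccl8 was listed at 0 in all 4 hepatocyte-like libraries, against 59.98 and 67.8 FPKM in fibroblasts, and Ccl5 was at 0 in 3 of them and at 1.33 FPKM in hepatocyte-like cells 3, against 12.8 and 13.3 FPKM in fibroblasts (limma adjusted p = 0.000422). Ccl2, Ccl7 and Ccl8 are neighbours, yet within hepatocyte-like cells Ccl2 was 1.17 to 7.18 times Ccl7 and Ccl8 gave no value above 0.

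Ccl6 and Ccl9 fell as well. Ccl6 was at 0, 0, 0.0762 and 0.433 FPKM in hepatocyte-like cells, against 157 and 765 FPKM in fibroblasts (-8.29 ± 0.74, limma adjusted p = 4.79e-05), and Ccl9 was at 2.18, 0.921, 0.654 and 0.0825 FPKM in hepatocyte-like cells, against 41.1 and 127 FPKM in fibroblasts (-5.34 ± 0.52, 7.62e-05). Macrophage markers moved the same way, with sums of 39.5 to 191 FPKM in hepatocyte-like cells, against 1873 and 9886 FPKM in fibroblasts, and 11 of 16 were called lower. Their part in the result was not tested. Over the alternatives tried the Ccl6 difference lay between -10.95 and -7.15 and was called each time. Cxcl12 was at 1.68, 3.34, 7.69 and 0.966 FPKM in hepatocyte-like cells, against 301 and 221 FPKM in fibroblasts (-6.11 ± 0.54, 4.55e-05). Cxcl10 was at 0.989, 4.07, 9.28 and 2.17 FPKM in hepatocyte-like cells, against 2.04 and 6.10 FPKM in fibroblasts, and did not pass (-0.13 ± 0.78, 0.934).

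**Figure D4:**
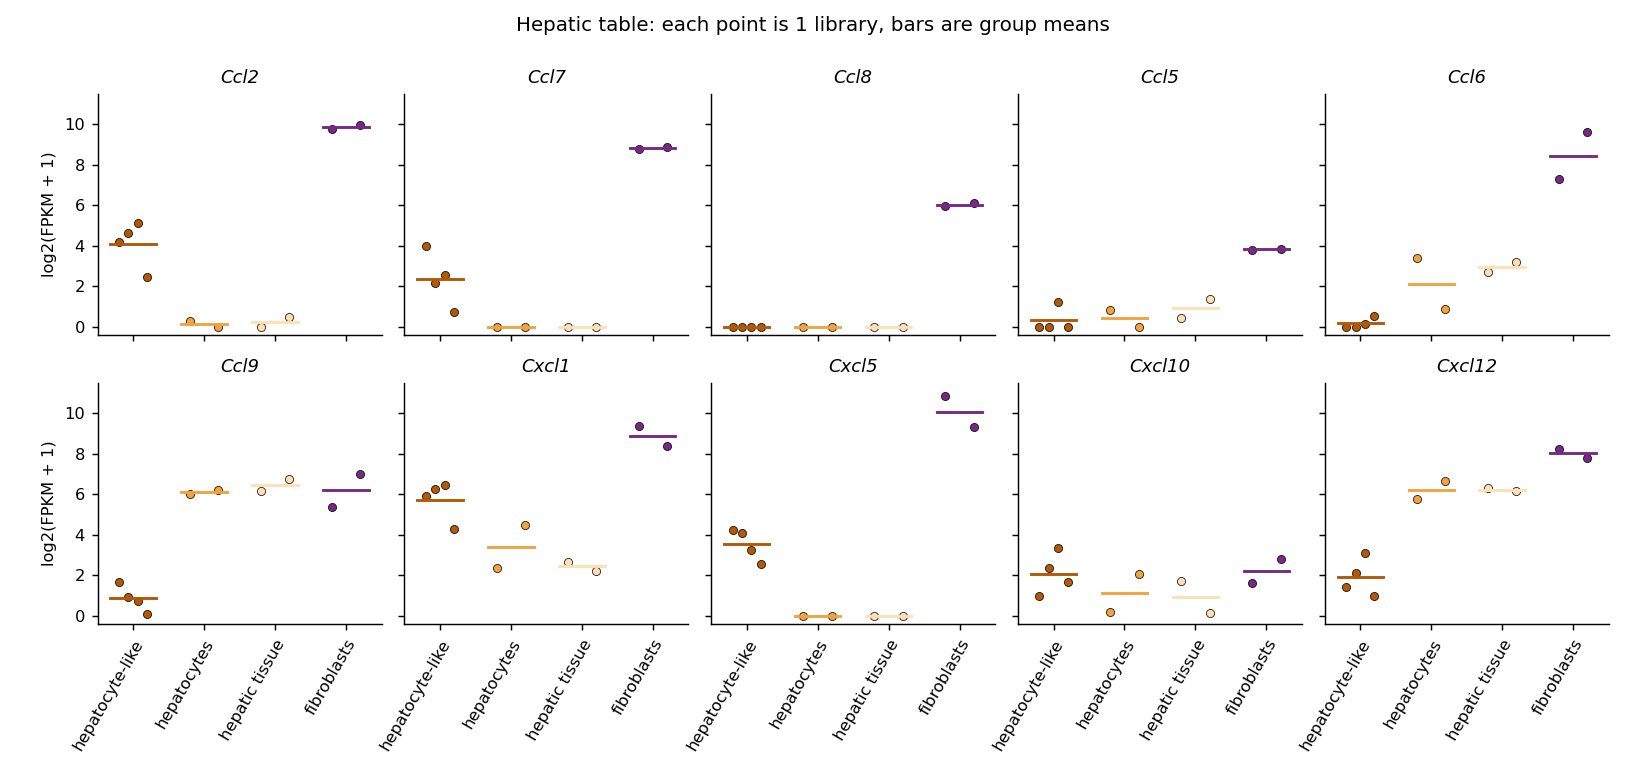
Level of each gene in the 10 libraries of the hepatic table, as log2(FPKM + 1), with a point for each library and a bar at each group's mean. Hepatocyte-like cells lie between fibroblasts and liver for Ccl2, Ccl7 and Cxcl5, and below both for Ccl9 and Cxcl12.

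Against liver the 10 genes split. In hepatocyte-like cells 4 were called higher and 2 lower than in hepatocytes, with backgrounds of 41.3% and 7.54% of genes (48.9% in either direction). Against hepatic tissue 4 were called higher and 3 lower, with backgrounds of 42.3% and 7.94% (50.2% in either direction), so the share called higher was close to that of all genes. Called genes leaned upward as a whole, 84.6% of them higher against hepatocytes and 84.2% against tissue, with all-gene medians of 0.937 and 0.957. After median-ratio scaling between libraries these shares became 50.8% and 47.3%, the medians 0.034 and 0.026, and the counts of chemokine genes called higher and lower 3 and 3 against hepatocytes and 4 and 3 against tissue. Flow cell HJM3Y held all hepatocytes and tissue and nothing else, so flow cell and group cannot be told apart.

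Chemokines that ranked high in fibroblasts were low in liver. Ccl2 was at 4.49 to 33.2 FPKM in hepatocyte-like cells, against 0.197 and 0 FPKM in hepatocytes and 0 and 0.412 FPKM in hepatic tissue, with differences of 3.96 ± 0.62 and 3.84 ± 0.62 (limma adjusted p = 0.000747 and 0.000895). Cxcl5 was at 4.82 to 17.8 FPKM and Ccl7 at 0.626 to 14.7 FPKM in hepatocyte-like cells, and both were listed at 0 in all 4 liver libraries. Cxcl5 was called higher in hepatocyte-like cells (limma adjusted p = 0.000668 and 0.000676). Ccl7 was also called (0.0201 and 0.0196), but not when any 1 hepatocyte or tissue library was left out (0.0829 to 0.0951). Cxcl1 was at 18.6 to 87.6 FPKM in hepatocyte-like cells, against 4.07 and 21.4 FPKM in hepatocytes and 5.33 and 3.70 FPKM in tissue. It was higher in hepatocyte-like cells than in tissue (3.29 ± 0.72, 0.00411). Against hepatocytes the groups overlapped, and the call (2.32 ± 0.72, 0.0223) was lost after median-ratio scaling (1.09, 0.234), without hepatocytes 1 (1.25, 0.249), without hepatocyte-like cells 3 (0.0506) and without the filter (0.0534).

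Ccl9 and Cxcl12 ran the other way. Ccl9 was at 0.0825 to 2.18 FPKM in hepatocyte-like cells, against 64.4 and 74.3 FPKM in hepatocytes and 70.8 and 107 FPKM in tissue, with differences of -5.27 ± 0.52 and -5.60 ± 0.52 (limma adjusted p = 5.45e-05 and 4.17e-05). Cxcl12 was at 0.966 to 7.69 FPKM in hepatocyte-like cells, against 53.3 and 98.6 FPKM in hepatocytes and 77.3 and 70.8 FPKM in tissue, with differences of -4.29 ± 0.54 and -4.32 ± 0.54 (0.000233 and 0.000228). All 4 hepatocyte-like libraries lay below all 4 liver libraries for both genes. Ccl6 was at 0 to 0.433 FPKM in hepatocyte-like cells, against 9.31 and 0.810 FPKM in hepatocytes and 5.55 and 8.15 FPKM in tissue. It was called lower in hepatocyte-like cells against tissue (-2.80 ± 0.74, 0.011), but not without hepatic tissue 2 (0.0801), and against hepatocytes it was not called (-1.96 ± 0.74, 0.0505), although it was after median-ratio scaling (0.0416), with a pseudocount of 0.1 (0.00988) and without hepatocytes 2 (0.0107), within a range of 0.00988 to 0.498. Summed macrophage markers were 39.5 to 191 FPKM in hepatocyte-like cells, 396 and 21.0 FPKM in hepatocytes 1 and 2 and 455 and 270 FPKM in tissue. Their order was that of Ccl6 in the hepatocytes but not in tissue, nor in hepatocyte-like cells, where hepatocyte-like cells 1 and 2 had the highest macrophage sums (149 and 191 FPKM) and Ccl6 at 0. Ccl9 was the higher in hepatocytes 2. Clec4f, which marks liver macrophages, was at 0 in all 4 hepatocyte-like libraries, against 77.5 and 4.60 FPKM in hepatocytes and 95.3 and 51.1 FPKM in tissue. Their part in the result was not tested.

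Hepatocytes set against hepatic tissue gave 0 of the 10 genes called in limma, with a background of 0.00639%, and 0 of the 10 had an unadjusted p under 0.05. Ccl7, Ccl8 and Cxcl5 were listed at 0 in every library of both groups, so they had no difference to call. The makeup of the output differed between groups as a description. Ccl2, Ccl7, Cxcl1 and Cxcl5 gave 87.6% to 95.8% of the summed level in hepatocyte-like cells, 2.14% to 10.8% in hepatocytes and tissue, and 86.8% and 66.9% in the fibroblasts of that table. Within the neutrophil attractants, Cxcl1 was 3.39 to 10.2 times Cxcl5 in hepatocyte-like cells and 0.363 and 0.519 times in fibroblasts.

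Other gene lists were counted in the same comparisons, and their part in the result was not tested. Against fibroblasts 12 of 27 NF-kB pathway genes were called lower and 0 higher, beside the 15% of all genes called lower there. Among the lower ones were Il6 (a mean of 0.234 FPKM in hepatocyte-like cells, against 38.4 FPKM) and Ptgs2 (0.189 against 28.5 FPKM). Of 18 other chemokines 10 were called lower, led by Cxcl14, Ccl12, Ccl3 and Ccl11, and 1 was higher. That was Ccl20, which attracts Ccr6-bearing lymphocytes, at 357, 262, 198 and 125 FPKM in hepatocyte-like cells, against 91.4 and 43.5 FPKM in fibroblasts and 0 in all 4 liver libraries. Of 15 interferon response genes 0 were called against fibroblasts. Against hepatocytes 12 of the NF-kB pathway genes were called higher and 1 lower, and 11 of 15 interferon response genes higher, beside the 41.3% of all genes called higher there. The median difference of the NF-kB pathway genes was 1.04, against 0.937 for all genes. After median-ratio scaling the counts were 7 higher and 4 lower, and 3 higher. Of 8 chemokine receptors tested against fibroblasts 1 was called higher and 3 lower, beside 11.4% and 15% of all genes. Their median difference was -1.20. The higher one was Cxcr2, the receptor for Cxcl1 and Cxcl5. It was at 11.2, 3.35, 3.18 and 1.22 FPKM in hepatocyte-like cells, against 0 in both fibroblast libraries (limma adjusted p = 0.0143).

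The neuronal tables have 1 library a group, so what follows compares libraries and carries no replicate check. The 10 levels summed to 1345 FPKM in TauEGFP colonies 1 and 2513 FPKM in FICB neuronal cells, against 3249 FPKM in fibroblasts 3, 13.96 FPKM in primary neurons 1 and 28.4 FPKM in brain. Fibroblast markers summed to 1555 FPKM in TauEGFP colonies 1 and 2368 FPKM in FICB neuronal cells, against 8983 FPKM in fibroblasts 3, 23.3 FPKM in primary neurons 1 and 258 FPKM in brain, and their part in these levels was not tested. Ccl8 was the 1 gene of the 10 that was at least 1 log2 unit higher than in fibroblasts 3 in both induced libraries, at 635 FPKM in TauEGFP colonies 1 and 547 FPKM in FICB neuronal cells, against 19.6 FPKM in fibroblasts 3. It was 32.4 and 27.9 times as high there as in fibroblasts 3. Its neighbour Ccl2 was at 207 FPKM in TauEGFP colonies 1 and 1056 FPKM in FICB neuronal cells, against 1337 FPKM in fibroblasts 3, and Ccl7 at 68.8 and 390 FPKM, against 521 FPKM.

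TauEGFP colonies 1 had 3 of the 10 genes at least 1 log2 unit higher than fibroblasts 3 and 6 lower, with backgrounds of 25.2% and 8.56% of genes (33.8% either way). Beside Ccl8 the higher ones were Ccl5 (80.4 against 2.96 FPKM) and Cxcl10 (34.4 against 1.93 FPKM). FICB neuronal cells had 1 higher (Ccl8) and 4 lower, with backgrounds of 15.6% and 11.4% (27.1% either way), and their Ccl5 was 3.02 FPKM and Cxcl10 0.965 FPKM. Cxcl5 was lower in both, at 88.7 FPKM in TauEGFP colonies 1 and 49.8 FPKM in FICB neuronal cells, against 825 FPKM in fibroblasts 3, and so was Cxcl12, at 10.4 and 9.23 FPKM, against 134 FPKM. Cxcl1 was at 219 and 456.5 FPKM, against 399.9 FPKM. Interferon response genes were at least 1 log2 unit higher than in fibroblasts 3 in 13 of 15 cases in TauEGFP colonies 1 and in 1 of 12 cases in FICB neuronal cells, where 1 was lower.

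Set directly against FICB neuronal cells, TauEGFP colonies 1 had 2 of 9 chemokine genes at least 1 log2 unit higher (Ccl5 and Cxcl10) and 3 lower (Ccl2, Ccl7 and Cxcl1), with backgrounds of 17.2% and 4.75% (21.9% either way). Their Ccl8 levels differed by 1.16 times. FICB neuronal cells held a neutrophil marker sum of 1448 FPKM, of which S100a8 gave 1446 FPKM, and the part of these transcripts in the result was not tested. Primary neurons 1 against brain gave 0 of 5 genes reaching 1 FPKM at least 1 log2 unit higher and 1 lower (Cxcl12, 5.39 against 23.4 FPKM), with backgrounds of 11.7% and 13.8% (25.5% either way).

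**Figure D5:**
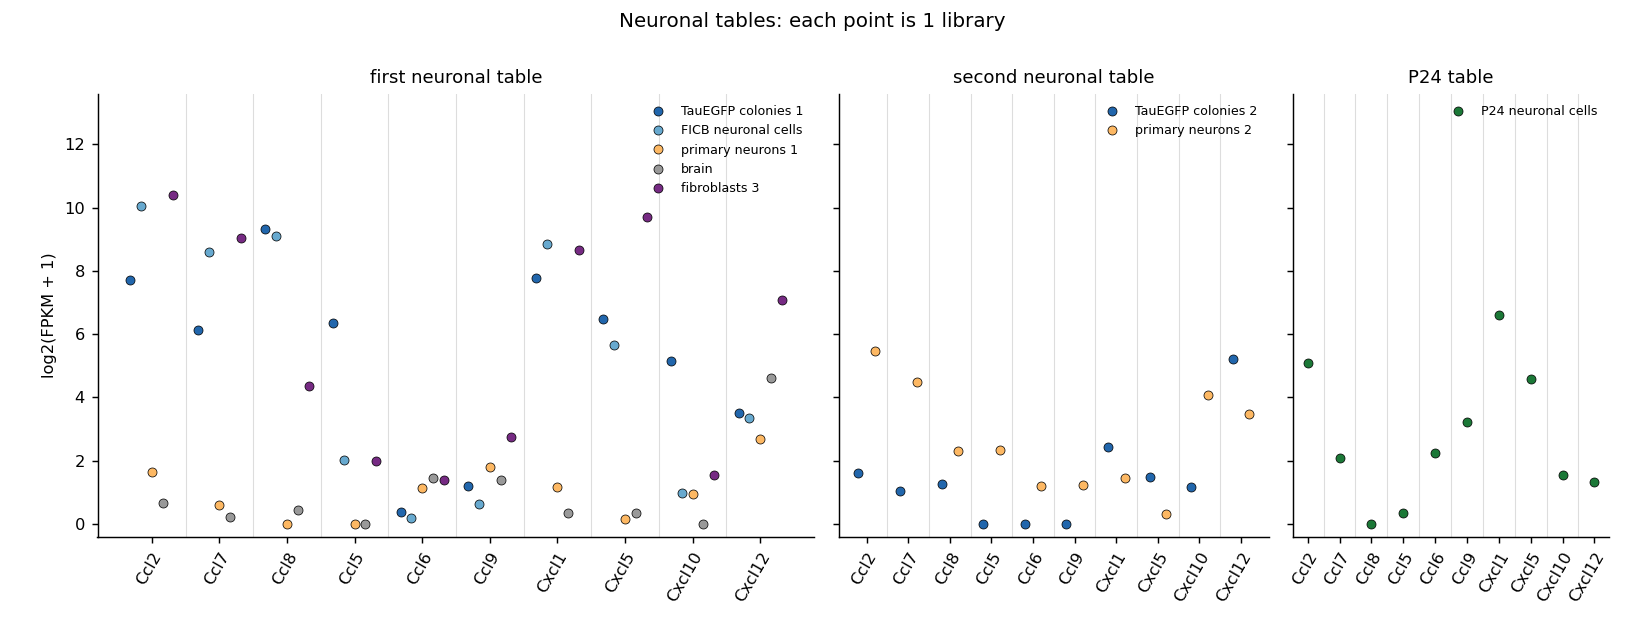
Level of each gene in the 8 libraries of the neuronal tables, as log2(FPKM + 1), with a point for each library. Ccl8 is high in TauEGFP colonies 1 and FICB neuronal cells and lower in fibroblasts 3, Ccl5 and Cxcl10 are high in TauEGFP colonies 1 alone among the 5 libraries of its table, and TauEGFP colonies 2 are low for all but Cxcl12.

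In the second neuronal table TauEGFP colonies 2, with a fibroblast marker sum of 3970 FPKM, had Ccl8 at 1.40 FPKM, Ccl2 at 2.06 FPKM, Cxcl1 at 4.42 FPKM, Ccl5 at 0, Cxcl10 at 1.26 FPKM and Cxcl12 at 35.8 FPKM. Against primary neurons 1 TauEGFP colonies 1 had 7 of the 10 genes at least 1 log2 unit higher and 0 lower, with backgrounds of 24.7% and 14.5% (39.2% either way). Against the library labelled primary neurons 2 TauEGFP colonies 2 had 2 higher and 7 lower, with backgrounds of 19.7% and 21% (40.6% either way). Those libraries were on different flow cells, and TauEGFP colonies and primary neurons differ in strain, so neither can be told apart from the group. That neuron library, rich in macrophage and glia markers, had Ccl2 at 42.9 FPKM, Ccl7 at 21.4 FPKM and Cxcl10 at 15.7 FPKM. These genes were at 2.09, 0.518 and 0.935 FPKM in primary neurons 1 of the other table. The part of the macrophage and glia markers in this was not tested. With both tables in 1 limma fit, which left 1 residual degree of freedom, 0 of 13625 genes were called (0%), and Cxcl1 and Cxcl5 were the chemokines with an unadjusted p under 0.05. They were higher in TauEGFP colonies in both tables, by 3.81 ± 1.46 for Cxcl1 (limma adjusted p = 0.899) and 3.76 ± 1.37 for Cxcl5 (limma adjusted p = 0.873).

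The library labelled P24 neuronal cells, alone in its table, had Cxcl1 at 96.9 FPKM, Ccl2 at 33.1 FPKM, Cxcl5 at 22.7 FPKM, Ccl9 at 8.43 FPKM, Ccl6 at 3.79 FPKM, Ccl7 at 3.26 FPKM, Cxcl10 at 1.89 FPKM, Cxcl12 at 1.53 FPKM, Ccl5 at 0.285 FPKM and Ccl8 at 0. Cxcl1 was 4.26 times Cxcl5 and Ccl20 was at 120 FPKM. These values come from a table that was normalized by itself, so no difference from other tables was computed.

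Genes whose levels ran most like those of 3 chemokines were named by Pearson r of log2(FPKM + 1), as a description over libraries that share tables and groups. Over the 16 libraries of the XEN table they were Gsap, Arhgap31 and Cav2 for Ccl2 (r = 0.983, 0.980 and 0.980), Ptx3, Cp and Cyp7b1 for Cxcl1 (0.985, 0.984 and 0.983) and Isg15, Edil3 and Slfn2 for Cxcl12 (0.967, 0.948 and 0.947). Over the 10 libraries of the hepatic table they were Filip1l, Ak1 and St3gal2 for Ccl2 (0.992, 0.991 and 0.989), Kifap3, Scoc and Tmem185a for Cxcl1 (0.977, 0.974 and 0.974) and Lrp1, Zcchc24 and Cpq for Cxcl12 (0.987, 0.986 and 0.964). No gene was named for the same chemokine in both tables.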

How the data were processed

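RNA sequencing of poly-A mRNA was done on 34 mouse libraries. The authors deposited FPKM values; the submitters' processing notes name TopHat2 and mm10, while counting, annotation and filters are not given in the sources used here. FPKM stands in the header of 1 of the 5 tables and was inferred for the other 4 from their ranges. Rows sharing an identifier were dropped (118, 99 and 118 in the hepatic, first neuronal and P24 tables), as was 1 row of the XEN table with an empty cell.

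Linear models were fitted to log2(FPKM + 1) with limma 3.58.1 in R 4.3.3 (empirical Bayes with trend), for genes reaching 1 FPKM in at least 2 libraries. The XEN table had 1 model with a flow cell term, HJMKLALXX against the HVN flow cells. Colonies 1 to 3, fibroblasts 1, the lines and eXEN were on HVN flow cells, and colonies 4 to 8 and fibroblasts 2 on HJMKLALXX. Lines were entered as F25 and s39 averaged with equal weight, so the gap between F25 and s39 did not enter the error. Samples of different P number counted as replicates within a line. The hepatic table had 1 model without covariates, and TauEGFP colonies and primary neurons were fitted with the table as a block, since their numbers name the tables. A call needed a Benjamini-Hochberg adjusted p under 0.05 over all genes of the comparison and a difference of at least 1. Tests were two-sided. With no record of separate cultures or animals, p-values measure only how far these libraries spread within their groups, which may be technical. For single libraries, genes reaching 1 FPKM in either were counted when at least 1 log2 unit apart. All 10 chemokines are named; other lists name at most 4 called genes, those with the largest differences, and the few others were chosen after their values were seen. The members and lists were chosen with earlier results of these data known. Alternatives were another pseudocount, no filter, median-ratio scaling, flow cells alone, a replicate block and leaving out each library. The models were tested on simulated data. Every column was used.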

Additional observations from a re-analysis of the deposited data

Results flagged for a closer look

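In 4 of 16 groups of a chemokine checked, 1 library stood far from the rest of its group by Dixon's test at the 95% level. For normally distributed values chance gives this in about 1 in 20 groups. The test was run on FPKM without logs, where that rate need not hold, so the count is not read as an excess. Colony 6 was the highest of the 8 colonies in Cxcl5, at 0.791 FPKM, and in Cxcl10, at 2.16 FPKM. Colony 4 was the highest in Cxcl12, at 22.4 FPKM. Hepatocyte-like cells 3 had Ccl5 at 1.33 FPKM, where the other 3 libraries were listed at 0, so that any value above 0 would have passed, and the chance rate does not hold for values that end at 0.

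For 5 genes the difference between TauEGFP colonies and primary neurons had opposite signs in the first and the second neuronal table, with 1 library a group in each, and the difference between the tables was not tested. On the log2(FPKM + 1) scale it was 6.07 and -3.84 for Ccl2, 6.35 and -2.33 for Ccl5, 5.52 and -3.45 for Ccl7, 9.31 and -1.04 for Ccl8, and 4.19 and -2.89 for Cxcl10.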

How the results depend on the processing

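Counts of called genes that moved by more than 1.5 times were, for hepatocytes against tissue (1 in the fit as reported), 0 with a pseudocount of 0.1, 5 without the filter, 5 with median-ratio scaling and 0 to 3 with a library left out. For hepatocyte-like cells they were 4722 (hepatocytes) and 4981 (tissue) after scaling, and 1528 to 4362 against fibroblasts with a library left out (1604 without fibroblasts 1, 1528 without fibroblasts 2). Lines against colonies gave 35 without the flow cell term, 130 on the HVN flow cells and 5 to 45 with a library left out, when 0 to 1 chemokine genes were called higher (1 without colony 6). Colonies against fibroblasts gave 2661 on flow cell HJMKLALXX and, with a replicate block on colonies and fibroblasts 1 and 2, 2874; same-numbered libraries correlated at 0.264 and -0.20, so they share only a number, and 9 of 9 chemokine genes tested stayed called lower. With fewer fibroblast libraries fewer chemokine genes pass the filter: 4 of 5 (HVN) and 3 of 4 (HJMKLALXX) were called lower in colonies and 4 of 5 (HVN) in lines, and with a library left out 4 to 10 in colonies and 4 to 9 in lines. In hepatocyte-like cells against hepatocytes 2 to 4 chemokine genes were called higher with a library left out (2 without hepatocytes 1). Median-ratio scaling took the all-gene median of colonies against fibroblasts to -0.015, against 0.155 before, and the chemokine genes called lower stayed at 10 in colonies and 9 in lines.

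Small differences changed sign in uncalled genes, and the cause was not tested. They were Ccl8 in lines against colonies at -0.38 (pseudocount 0.1) and Cxcl10 in hepatocyte-like cells against fibroblasts at 0.30 (flow cell HH2TTALXX alone). With a library left out, Cxcl10 lay between -0.74 and 0.49 in hepatocyte-like cells against fibroblasts and between -0.35 and 0.75 in lines against fibroblasts. Lines against colonies lay between -0.28 and 0.10 for Ccl7 and between -0.25 and 0.40 for Ccl2. Hepatocytes against tissue lay between -0.47 and 0.41 for Cxcl12, -0.37 and 0.13 for Ccl2, -0.75 and 1.12 for Cxcl10, -2.10 and 0.41 for Ccl6, and -0.11 and 2.04 for Cxcl1. Ccl5 in hepatocyte-like cells against hepatocytes lay between -0.53 and 0.30. In the other chemokine values, 689 alternatives kept direction and call, 13 lost and 4 gained the call. Leaving out a library was not run for TauEGFP colonies against primary neurons, since the block leaves no residual degrees of freedom. Values near 0 rest on few fragments, and no interval was computed because total counts were not stated.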
